A study of Mus musculus with 4 samples.

Results

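MHC class II genes were measured in thymic epithelial cells (TECs) of WT-Control, WT-RANKL-Ab, Cd40KO-Control and Cd40KO-RANKL-Ab mice by droplet-based scRNA-seq. The 9 genes Ciita, H2-Aa, H2-Ab1, H2-Eb1, Cd74, H2-DMa, H2-DMb1, H2-DMb2 and H2-Oa were chosen by name, matched to the gene symbols of the matrices, and were all found among 31053 gene rows. All mice were C57BL/6 and 6 weeks old at analysis. WT or Cd40-deficient (Cd40KO) mice had received a RANKL-neutralizing antibody (RANKL-Ab) or a control IgG (Control) 2 weeks earlier, and cells of 3 mice were pooled into 1 library for each condition. The antibody blocks RANKL and the deletion removes CD40, and the design asks what the remaining TECs express when 1 or both signals are lost. With 1 library per condition there was no replicate, so no test between conditions was run, and every interval given here covers counting error only, so that variation among animals is outside it.

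MHC class II molecules display peptides from the endosomal pathway to CD4+ T cells, and in the thymus TECs use them to select and tolerize developing CD4+ T cells. H2-Aa pairs with H2-Ab1 to form I-A, and H2-Eb1 is the beta chain of I-E, whose alpha chain is not made in C57BL/6 mice. The invariant chain Cd74 occupies the groove until it is degraded, H2-DM (H2-DMa with H2-DMb1 or H2-DMb2) then exchanges the remaining fragment for peptide, and H2-O, of which H2-Oa is the alpha chain, restrains H2-DM. Ciita, the class II transactivator, binds no DNA itself and acts through factors assembled on a shared promoter module with S, X and Y boxes.

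In GRCm38, 7 of the 9 genes lie within 224 kb of chromosome 17. H2-Oa (ENSMUSG00000024334) spans chr17:34092340-34095234, H2-DMa (ENSMUSG00000037649) chr17:34119541-34139101, H2-DMb2 (ENSMUSG00000037548) chr17:34143307-34151555 and H2-DMb1 (ENSMUSG00000079547) chr17:34153072-34160230. H2-Ab1 (ENSMUSG00000073421) spans chr17:34257689-34269419, H2-Aa (ENSMUSG00000036594) chr17:34282744-34287823 on the minus strand and H2-Eb1 (ENSMUSG00000060586) chr17:34305867-34316674. Ciita (ENSMUSG00000022504) lies at chr16:10480059-10528418. H2-DMb1 and H2-DMb2 are neighbouring copies. Their longest coding transcripts were identical at 69.1% of aligned positions with 1 run of 221 identical bases, and at 64.6% over the last 300 bases, where reads of a 3' kit fall. Over those last 300 bases the longest identical run was 23 bases. Reads from the run of 221 bases cannot be assigned to either copy, and how many reads came from it was not counted. The levels of the pair may thus be less certain than those of the other members.

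Promoter sequences of RefSeq (GRCm38.p6; 250 bases before to 50 after a start) were given for 6 members, namely H2-Aa, H2-Eb1, H2-DMa, H2-DMb1, H2-DMb2 and H2-Oa, and no entry was found for Ciita, H2-Ab1 and Cd74. An X core written as GNAACNG and followed after 25 to 40 bases, start to start, by the Y box letters ATTGG was found in 2 of them, H2-Eb1 and H2-DMb1. Of all 32851 promoters, 0.822% held this pair on either strand. The letters TGATTGG, picked after the members' promoters had been read, occurred in 5 of the 6, all but H2-DMa, and in 7.82% of all promoters. A match describes the letters and is not evidence of binding. The 62 bases that end with TGATTGG are given for the 3 members whose window lies outside annotated exons, to show the Y box letters in their context. Capitals mark TGATTGG and, where present, the fixed letters GNAACNG. A stretch without these letters may still hold an X box written with other letters.
H2-Eb1, chr17:34305751-34305812, plus strand: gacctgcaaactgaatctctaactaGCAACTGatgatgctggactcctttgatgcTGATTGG
H2-Aa, chr17:34287867-34287928, minus strand: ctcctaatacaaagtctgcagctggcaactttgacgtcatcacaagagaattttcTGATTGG
H2-DMb2, chr17:34145102-34145163, plus strand: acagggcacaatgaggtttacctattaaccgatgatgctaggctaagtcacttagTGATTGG
The Y box ended 54, 43 and 85 bases before the start site in H2-Eb1, H2-Aa and H2-DMb2.

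The 4 libraries held 2099 to 10590 barcodes and 19175068 to 95607338 UMIs (unique molecular identifiers, 1 per captured mRNA molecule), with medians of 6086 to 7621.5 UMIs per kept cell. Cd40 was at 110.0 counts per 1000000 UMIs (CPM) in WT-Control, 28.8 CPM in WT-RANKL-Ab and 5.75 and 4.75 CPM in the libraries labelled Cd40KO. Tnfrsf11a, the gene of the RANKL receptor, was at 87.6, 58.6, 76.6 and 25.5 CPM in the same order. The Cd40KO libraries shared 210 barcodes, of which 150 fell in the same class, with a median of 724 UMIs in Cd40KO-Control and 23858 UMIs in Cd40KO-RANKL-Ab, whereas other pairs of libraries shared 18 to 125. Values for the Cd40KO libraries are therefore also given without these barcodes. Cells were assigned to classes by the UMIs of marker genes per 10000 UMIs of the cell, without using the 9 members. Of 28055 kept cells, 22088 fell in 15 classes, 2178 passed more than 1 gate in another combination and 3789 passed none. Class names carry the suffix -like. The limits were set by eye after the files were seen, and 28.1% of progenitor-like cells and 10.6% of cTEC-like cells lay within 1.5-fold of theirs. The Aire+ mTEC-like class held 2392, 173, 1552 and 2 cells in WT-Control, WT-RANKL-Ab, Cd40KO-Control and Cd40KO-RANKL-Ab, so the last library gives no value for that class.

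Among the classes of WT-Control with at least 30 cells, UMIs of class II genes were most frequent in Aire+ mTEC-like cells and least frequent in tuft-like cells. By summed CPM, though not by the median over cells, tuft-like cells lay below the thymocyte-like cells of that library, described further on. Ciliated-like cells, at 19320.5 CPM, overlapped the thymocyte-like cells. Both comparisons used the thymocyte limit of 20 used throughout. The summed members reached 59560 CPM (95% Poisson interval, 59470 to 59650) in Aire+ mTEC-like cells, 44789.5 CPM in enterohepatic-like cells and 35476 CPM (95% interval, 35139 to 35815) in cTEC-like cells. TA-TEC-like cells, the cycling cells, had 35380 CPM when Ccl21a-low, which overlapped the interval of cTEC-like cells, and 31379 CPM when Ccl21a-high, which overlapped microfold-like cells at 31223 CPM. Progenitor-like cells followed with 29237 CPM and CCL21+ mTEC-like cells with 28799 CPM, and tuft-like cells ended the order with 6223 CPM. In Cd40KO-RANKL-Ab the levels were 24830 CPM in cTEC-like, 23760 CPM in progenitor-like and 23478 CPM in CCL21+ mTEC-like cells, of which the latter pair overlapped.

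**Figure D1:**
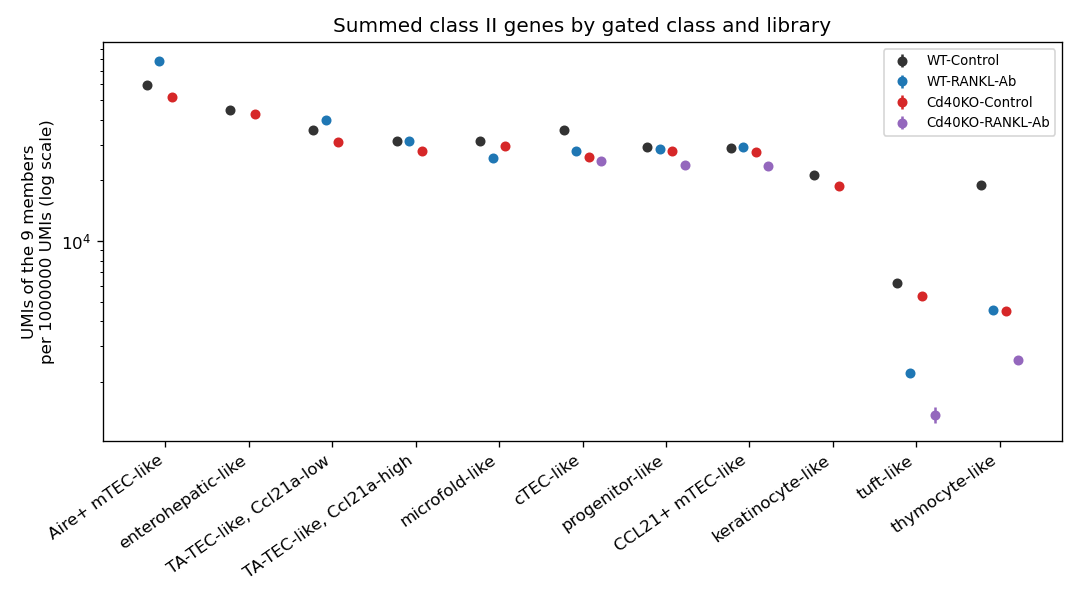
Summed UMIs of the 9 class II genes per 1000000 UMIs (log scale) in each gated class with at least 30 cells; points are single libraries and bars exact 95% Poisson intervals, most of them smaller than the point. Aire+ mTEC-like cells lie highest, between 51899 and 78054 CPM, and tuft-like cells lie between 1373 and 6223 CPM.

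Thymocytes do not make class II molecules in mice, and thymocyte-like cells therefore gave the level of RNA from other cells. Their summed members were at 19052 CPM in WT-Control, 4563 CPM in WT-RANKL-Ab, 4476 CPM in Cd40KO-Control and 2578 CPM in Cd40KO-RANKL-Ab, from 59, 227, 385 and 197 cells. A thymocyte limit of 50 instead of 20 marker UMIs per 10000, chosen after the members' levels in these cells had been seen, gave 4664, 3190, 3149 and 2095 CPM, so the WT-Control value depends on the limit. Thymocyte-like cells also held 2406 to 4061 CPM of the cTEC marker list. Of the member UMIs, Cd74 gave a similar part in both, 40.9% to 46.3% in thymocyte-like and 42.2% to 47.9% in CCL21+ mTEC-like cells. Other members differed. H2-Oa gave 1.14% to 1.42% in thymocyte-like cells, 0.274% to 0.606% in CCL21+ mTEC-like cells and 0.922% to 1.34% in Aire+ mTEC-like cells. H2-DMa gave 0.848% to 2.86% in thymocyte-like and 0.763% to 1.10% in CCL21+ mTEC-like cells.

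In tuft-like cells the share with Cd74 was not above this background. With each cell thinned to 1000 UMIs, a UMI of Cd74 was found in 54.6% of tuft-like cells of WT-Control (95% Clopper-Pearson interval, 49.3% to 59.9%), 30.1% of WT-RANKL-Ab, 40.9% of Cd40KO-Control and 27.5% of Cd40KO-RANKL-Ab. The shares of thymocyte-like cells were 67.3% (52.9% to 79.7%), 28.8%, 45.5% and 27.3%, against 99.1% to 100% in the cTEC-like, CCL21+ mTEC-like, Aire+ mTEC-like and progenitor-like cells of each library with a value. Median depths before thinning were 5035 to 6711.5 UMIs in tuft-like and 1349 to 2478 UMIs in thymocyte-like cells. RNA from other cells may form a larger part of the shallower cells, which thinning does not correct, so the thinned background may be too high for tuft-like cells. Counted per cell with at least 1000 UMIs, medians in the same order of libraries were 12, 7, 7 and 8 member UMIs in tuft-like cells. In thymocyte-like cells they were 7, 2, 3 and 2. Summed members in tuft-like cells went from 6223 CPM in WT-Control to 2219, 5356 and 1373 CPM in WT-RANKL-Ab, Cd40KO-Control and Cd40KO-RANKL-Ab, of which only Cd40KO-Control was above the summed level of its own thymocyte-like cells at the limit of 20, and WT-Control was so too at the limit of 50. Thymocyte-like cells were also highest in WT-Control and lowest in Cd40KO-RANKL-Ab, but there the intervals of WT-RANKL-Ab and Cd40KO-Control overlapped. Medians over cells, on the scale of the figure that follows, were higher in tuft-like than in thymocyte-like cells of every library. They were 21.9 and 18.2 in WT-Control and 11.4 and 6.03 in WT-RANKL-Ab. In Cd40KO-Control they were 15.2 and 9.15, and in Cd40KO-RANKL-Ab 13.1 and 7.13. Whether tuft-like cells lay above background thus depended on the measure. As the Cd74 shares were not above background at the limit of 20, no difference in expression is read from the tuft-like levels. H2-DMb1 was at 106 CPM (94.0 to 120) in tuft-like cells of WT-Control. This overlapped the 72.9 CPM (48.5 to 105) of thymocyte-like cells. In WT-RANKL-Ab, Cd40KO-Control and Cd40KO-RANKL-Ab it was at 88.3, 96.3 and 94.5 CPM, against 36.1, 25.8 and 17.2 CPM in thymocyte-like cells, without overlap. The log2 ratio of H2-DMb1 from Cd40KO-RANKL-Ab to WT-Control in tuft-like cells was -0.17 (95% interval, -0.75 to 0.36). That of Cd74 was -3.23 (-3.54 to -2.95), from which, as above, no difference in expression is read.

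**Figure D2:**
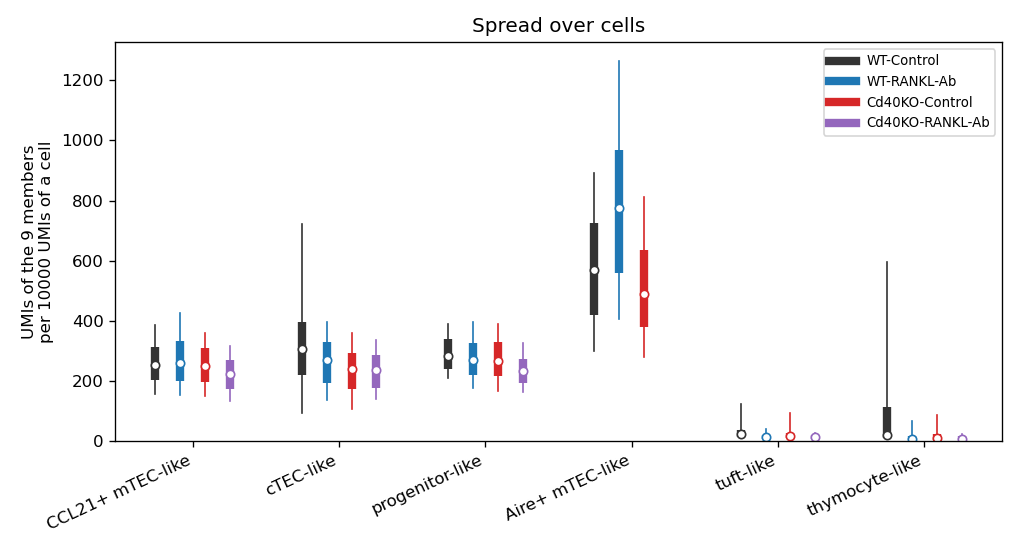
UMIs of the 9 members per 10000 UMIs of a cell, in cells with at least 1000 UMIs; circles are medians over cells, thick bars the middle 50% and thin lines the 10th to 90th percentile of 1 library. Aire+ mTEC-like medians were 568 in WT-Control, 776 in WT-RANKL-Ab and 489 in Cd40KO-Control, and tuft-like medians 11.4 to 21.9.

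CCL21+ mTEC-like cells of WT-Control had a median of 253 member UMIs per 10000, with 156 at the 10th and 386 at the 90th percentile. In Cd40KO-RANKL-Ab the median was 223, with 133 and 317. In cTEC-like cells of WT-Control the 90th percentile was 722, against 336 to 395 in the other libraries, so a minority of these 123 cells carried much more class II mRNA than the rest. The same library had the highest level in this class of the Aire+ mTEC list (286 CPM, 6 of 6 genes with a UMI, against 41.3 to 57.7 CPM in the others) and of the myeloid and B cell list (290 CPM, 13 of 15 genes, Itgax and Xcr1 at 0, against 7.57 to 38.4 CPM). The cells had been sorted as EPCAM+ and CD45-, a gate meant to exclude blood cells, yet 868 thymocyte-like cells were among those kept. The part of either list in the class II values was not tested.

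The genes of the I-A and I-E chains and the invariant chain made up most class II mRNA. Cd74 (ENSMUSG00000024610) lies at chr18:60803848-60812652 in GRCm38. In CCL21+ mTEC-like cells Cd74, the invariant chain, was at 13530 CPM in WT-Control, 13990 CPM in WT-RANKL-Ab, 11725 CPM in Cd40KO-Control and 10968 CPM in Cd40KO-RANKL-Ab. H2-Ab1, the I-A beta chain, was at 6173, 6072, 6099 and 5057 CPM in the same order. H2-Aa, its alpha chain partner, was at 4420, 4485, 4847 and 3549 CPM. For H2-Eb1, the I-E beta chain, the levels were 3720, 3709, 4159 and 3043 CPM. Each of these 4 genes was thus lowest in Cd40KO-RANKL-Ab, by less than 1.5-fold, while H2-Aa and H2-Eb1 were highest in Cd40KO-Control, where Cd74 was below both WT libraries.

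H2-DMa, a subunit of the peptide exchange factor, marked classes more than conditions. In progenitor-like cells it was at 635 CPM (586 to 687) in WT-Control, 653 CPM in WT-RANKL-Ab, 632 CPM in Cd40KO-Control and 549 CPM in Cd40KO-RANKL-Ab. cTEC-like cells came second in every library, at 433 to 484 CPM, and CCL21+ mTEC-like cells had 220 to 259 CPM. The intervals of progenitor-like and cTEC-like cells did not overlap in any library. Aire+ mTEC-like cells, which had the highest summed members, held 237 to 311 CPM. H2-DMb1 was likewise higher in progenitor-like (291 to 326 CPM) than in cTEC-like (158 to 182 CPM) or CCL21+ mTEC-like cells (142 to 176 CPM). H2-DMb2, its neighbour, had its highest level in Aire+ mTEC-like cells, at 943, 932 and 736 CPM in WT-Control, WT-RANKL-Ab and Cd40KO-Control, against 241 to 446 CPM in the other 3 classes.

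**Figure D3:**
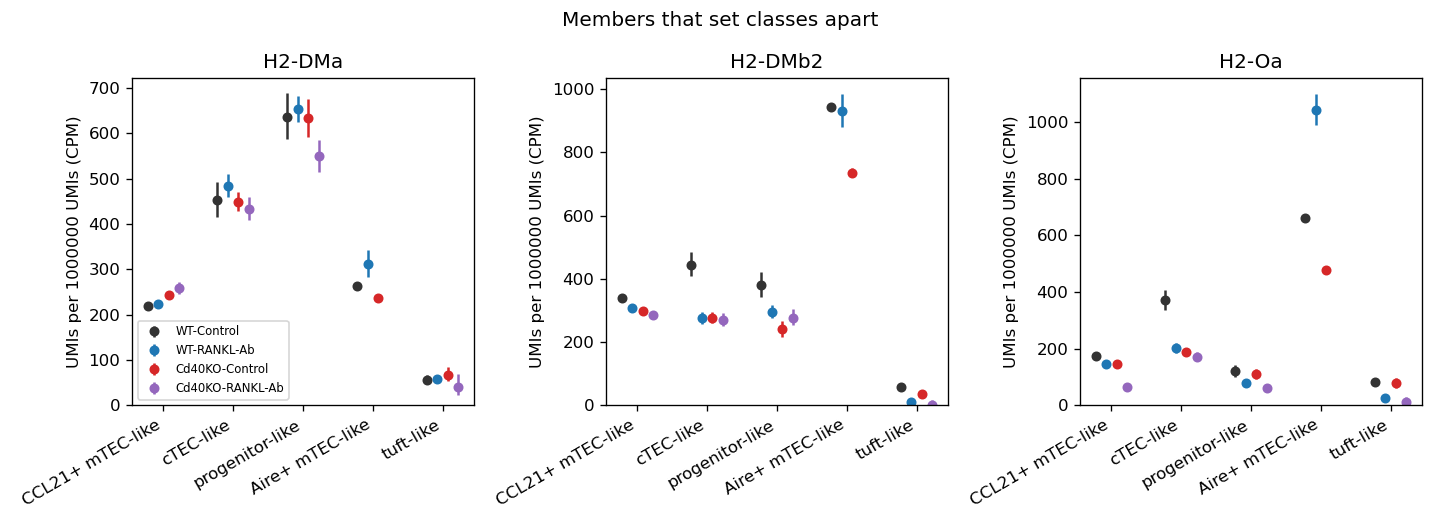
Levels of H2-DMa, H2-DMb2 and H2-Oa in CPM in 5 classes; points are single libraries and bars exact 95% Poisson intervals. H2-DMa is highest in progenitor-like cells of all 4 libraries, whereas H2-DMb2 and H2-Oa are highest in Aire+ mTEC-like cells among these 5 classes.

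H2-Oa, the alpha chain of the H2-DM inhibitor H2-O, had the widest range between libraries of the 9 members, as the ratio of highest to lowest level, in CCL21+ mTEC-like, cTEC-like, Aire+ mTEC-like and progenitor-like cells. Aire+ mTEC-like cells held 660 CPM in WT-Control, 1043 CPM in WT-RANKL-Ab and 478 CPM in Cd40KO-Control. In CCL21+ mTEC-like cells it was at 175 CPM in WT-Control, 145 CPM in WT-RANKL-Ab, 147 CPM in Cd40KO-Control and 64.3 CPM in Cd40KO-RANKL-Ab, and without the shared barcodes the last level was 61.6 CPM. The library lacking both signals was the lowest in this class, and the intervals of WT-RANKL-Ab and Cd40KO-Control overlapped. Its log2 ratio was -1.16 (-1.33 to -1.02) to WT-RANKL-Ab and -1.18 (-1.36 to -1.04) to Cd40KO-Control. After thinning, 13.6% (12.4% to 14.8%) of CCL21+ mTEC-like cells had a UMI of H2-Oa in WT-Control, 13.02% in WT-RANKL-Ab, 10.7% in Cd40KO-Control and 5.09% (3.62% to 6.92%) in Cd40KO-RANKL-Ab. Thymocyte-like cells at the limit of 20 had 11.5% (4.35% to 23.4%), 6.81%, 6.61% and 4.55% (1.98% to 8.76%). Against these, the shares of CCL21+ mTEC-like cells in WT-Control and in Cd40KO-RANKL-Ab could not be told from background. The WT-Control background depends on the limit. Its summed members fell from 19052 CPM in 59 cells to 4664 CPM in 46 cells at the limit of 50, for which H2-Oa alone is not given. By CPM at the limit of 20, thymocyte-like cells of WT-Control, at 271 CPM of H2-Oa, lay above CCL21+ mTEC-like cells. In Cd40KO-RANKL-Ab they had 33.3 CPM (22.9 to 46.8), below the 64.3 CPM (58.1 to 71.0) of CCL21+ mTEC-like cells. Aire itself went with H2-Oa in CCL21+ mTEC-like cells, at 17.6, 5.62, 9.40 and 0.490 CPM, and the Aire+ mTEC list at 350, 430, 256 and 231 CPM with all 6 genes found except Ccl22 in Cd40KO-RANKL-Ab. The part of RNA from Aire+ cells in the H2-Oa values was not tested.

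In CCL21+ mTEC-like cells, the mTECs that secrete the chemokine CCL21, the 3 libraries were compared with WT-Control, which the 3 ratios share. Of the 9 members, 0 were at least 1.5-fold lower and 0 higher in WT-RANKL-Ab, where 8.11% and 6.98% of the 13087 genes that reached 50 UMIs over the pair of libraries were. In Cd40KO-Control the counts were 0 and 0, beside 7.82% and 16.5% of all genes. In Cd40KO-RANKL-Ab 1 member, H2-Oa, was lower, with a log2 ratio of -1.43 (95% interval, -1.59 to -1.29), and 0 were higher, beside 12.0% and 14.6% of all genes. The median log2 ratio of the members was 0.02, 0.13 and -0.29, and that of all genes 0.12, 0.12 and 0.11. Ciita, the transactivator, was at 80.3, 93.8, 91.5 and 75.6 CPM, and its log2 ratio in Cd40KO-RANKL-Ab of -0.09 (-0.24 to 0.06) included 0. In the same comparison H2-DMa and H2-DMb1 had log2 ratios of 0.23 (0.15 to 0.32) and 0.31 (0.21 to 0.41), above 0 while the chains and Cd74 were at -0.32 to -0.29.

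cTEC-like cells, which present self-peptides for positive selection, had less class II mRNA in the other 3 libraries than in WT-Control. In WT-RANKL-Ab 2 of 9 members were at least 1.5-fold lower and 0 higher, beside 7.43% and 15.3% of all genes. In Cd40KO-Control the counts were 2 and 0, beside 8.23% and 29.3%, and in Cd40KO-RANKL-Ab 3 and 0, beside 6.28% and 20.7%. H2-DMb2 and H2-Oa were past the fold each time. H2-DMb2 had 446 CPM in WT-Control, then 276, 277 and 272 CPM in WT-RANKL-Ab, Cd40KO-Control and Cd40KO-RANKL-Ab. H2-Oa had 372 CPM in WT-Control, then 202, 187 and 172 CPM in the others, and its log2 ratio in Cd40KO-RANKL-Ab was -1.11 (-1.31 to -0.93). H2-Aa was the further member in Cd40KO-RANKL-Ab, at -0.59 (-0.63 to -0.55). The WT-Control class holds the Aire+ and myeloid marker RNA given above, and with every gate limit raised 1.5-fold the counts of lower members were 0, 0 and 1. Removing the shared barcodes moved the count of Cd40KO-RANKL-Ab from 3 to 5.

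In progenitor-like cells, marked by Ackr4, Dcn and Serpinf1, the summed members were close to WT-Control in 2 libraries, with log2 ratios of -0.03 (-0.05 to -0.01) in WT-RANKL-Ab and -0.07 (-0.09 to -0.05) in Cd40KO-Control, and at -0.30 (-0.32 to -0.28) in Cd40KO-RANKL-Ab. In WT-RANKL-Ab 0 members were at least 1.5-fold lower and 0 higher, beside 4.67% and 11.5% of all genes. In Cd40KO-Control 1 was lower, H2-DMb2, and 1 higher, Ciita, beside 6.66% and 26.6%. In Cd40KO-RANKL-Ab 1 was lower, H2-Oa, and 0 higher, beside 4.49% and 12.8%. Ciita was at 90.5, 94.2, 140 and 105 CPM, from 88 UMIs in WT-Control, and its log2 ratio in Cd40KO-Control of 0.63 (0.26 to 1.01) was under 1.5-fold when 10 CPM were added. H2-Oa was at 120, 79.9, 111 and 60.4 CPM, with a log2 ratio of -0.98 (-1.39 to -0.60) in Cd40KO-RANKL-Ab. The Aire+ mTEC list was at 63.7, 10.7, 29.6 and 7.77 CPM in these cells and the myeloid and B cell list at 96.6, 9.36, 17.9 and 5.98 CPM, whose part in the values was not tested. With every gate limit raised 1.5-fold the counts of lower members in both Cd40KO libraries were 0.

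Aire+ mTEC-like cells, which express tissue antigens under the regulator Aire, had more class II mRNA per UMI in WT-RANKL-Ab than in WT-Control. Counted per cell, the direction was the reverse, with medians of 483.5 and 686 member UMIs in cells with at least 1000 UMIs. The summed members were at 59560 CPM in WT-Control, 78054 CPM in WT-RANKL-Ab and 51899 CPM in Cd40KO-Control. In WT-RANKL-Ab 0 members were at least 1.5-fold lower and 1 higher, H2-Oa, with a log2 ratio of 0.66 (0.58 to 0.74), beside 25.2% and 15% of all genes. In Cd40KO-Control the counts were 0 and 0, beside 5.87% and 12.9%. Cd74 was at 30584, 40973 and 25562 CPM, and Ciita at 171, 253 and 161 CPM. H2-DMb2 was the exception in WT-RANKL-Ab, with a log2 ratio of -0.02 (-0.10 to 0.07) when the other 8 had ratios of 0.24 to 0.66. The 173 cells of WT-RANKL-Ab were shallower, with a median of 6817 UMIs against 11428 UMIs in WT-Control, and their cTEC list was at 4243 CPM against 2289 CPM, whose part in the difference was not tested. With TMM factors 0 members were higher.

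**Figure D4:**
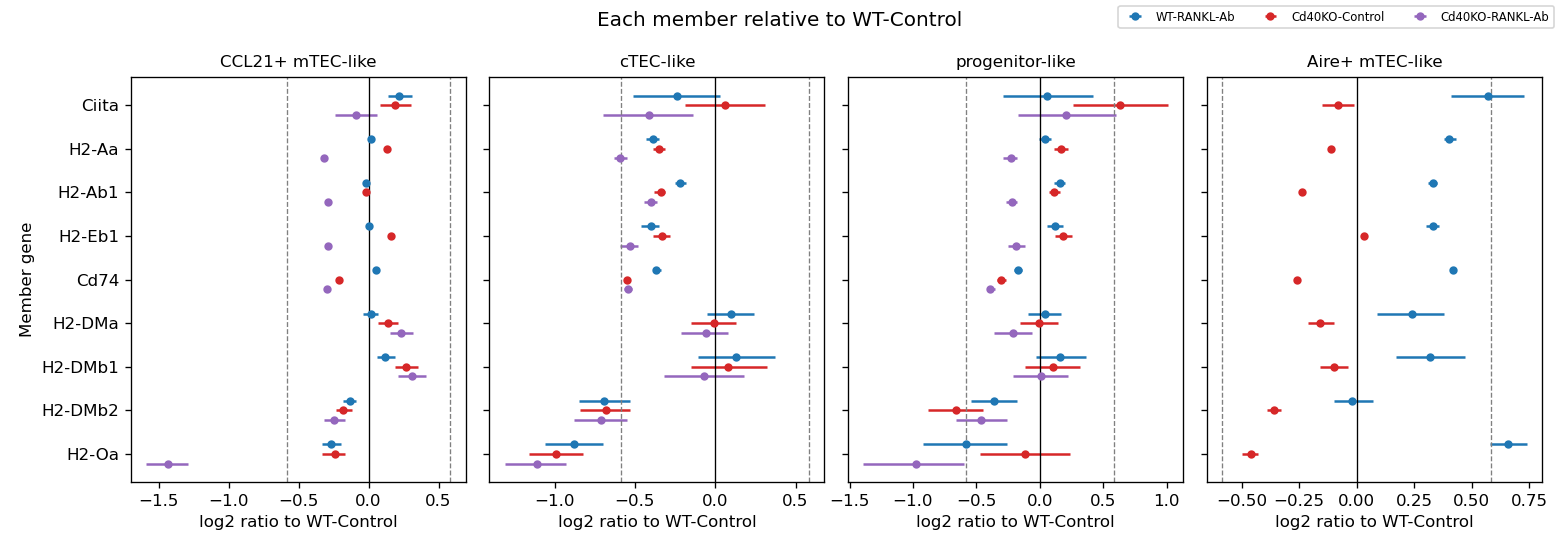
Log2 ratio of each member to WT-Control in 4 classes, with exact 95% intervals for counting error; colours are the 3 other libraries and dashed lines mark 1.5-fold. In CCL21+ mTEC-like cells H2-Oa of Cd40KO-RANKL-Ab lies at -1.43 and every other member between the dashed lines.

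Other genes of the pathway were taken from lists. In Cd40KO-RANKL-Ab, the class I list (10 genes) had 5 members at least 1.5-fold lower in CCL21+ mTEC-like, 3 in cTEC-like and 4 in progenitor-like cells and 0 higher in each, of 10, 9 and 9 with enough UMIs. Over all genes 12.0%, 6.28% and 4.49% were lower and 14.6%, 20.7% and 12.8% higher in the same comparisons. Its medians of -0.61, -0.29 and -0.50 stand beside -0.29, -0.53 and -0.22 for the 9 class II members. Lower genes of the class I list were not limited to this library. In the same 3 classes 4, 3 and 3 were lower in WT-RANKL-Ab and 0, 4 and 3 in Cd40KO-Control, of 10, 10 and 9. Over all genes 8.11%, 7.43% and 4.67% were lower in WT-RANKL-Ab and 7.82%, 8.23% and 6.66% in Cd40KO-Control. The values that follow are again for Cd40KO-RANKL-Ab over WT-Control. B2m, the class I light chain, in CCL21+ mTEC-like cells had 11999 CPM in WT-Control against 5204 CPM in Cd40KO-RANKL-Ab, a log2 ratio of -1.20 (-1.22 to -1.19), and in progenitor-like cells at 6008 and 1657 CPM, a ratio of -1.86 (-1.92 to -1.79). Psmb8, a subunit of the immunoproteasome, had log2 ratios of -1.30 in CCL21+ mTEC-like, -1.15 in progenitor-like and -1.43 in cTEC-like cells. H2-D1, a class I heavy chain, was past the fold in all 3 classes, with log2 ratios of -0.67, -0.69 and -1.40, and H2-K1 in progenitor-like cells, at -1.01. Tap1, a peptide transporter subunit, and Nlrc5, the class I transactivator, were past the fold in CCL21+ mTEC-like cells, at -0.85 and -0.65.

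Among genes of the interferon gamma axis, Socs1, an inhibitor of the pathway, was at -0.98 in CCL21+ mTEC-like cells, Irf1 at 0.97 in progenitor-like cells and Jak2 at 1.20 in cTEC-like cells. Of the endosomal proteases, 3, 2 and 0 were lower and 0, 1 and 0 higher, of 7, 7 and 5 with enough UMIs. Ctss, which cleaves the invariant chain, was at 86.7 and 14.7 CPM in CCL21+ mTEC-like cells. In cTEC-like cells it was at 58.4 and 6.20 CPM, from 70 and 17 UMIs. Aire+ mTEC-like cells of WT-Control held 330 CPM of Ctss. Ctsh was at -1.54 and -3.96 and Lgmn at -0.64 in CCL21+ mTEC-like cells, where the second value for Ctsh is that of cTEC-like cells, and Sppl2a, which clears the last fragment of the invariant chain, was at 1.05 in cTEC-like cells. March8, a ubiquitin ligase and the 1 gene of its list with enough UMIs, was at 0.86 in CCL21+ mTEC-like cells. Of the other class II genes, 1, 1 and 0 were lower and 0 higher in each class, of 2, 1 and 1 with enough UMIs. H2-Ob was at -0.90 in CCL21+ mTEC-like and H2-Eb2 at -0.96 in cTEC-like cells. Of the 7 promoter factors, 1, 0 and 0 were lower and 0, 3 and 0 higher, of 7, 6 and 4 with enough UMIs. Rfxap was at -0.61 in CCL21+ mTEC-like cells. Nfya, Nfyc and Creb1 were at 1.21, 0.67 and 0.69 in cTEC-like cells, where Nfya and Nfyc rest on 8 and 16 UMIs in WT-Control.

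Profiles of a class in a library with at least 30 cells were compared. Classes of cells that passed both the thymocyte and cTEC gates, or both the Ccl21a and progenitor gates, were left out. Over the remaining 38 profiles, each member was set beside the mean log2 level of the other 8. H2-Ab1 followed it with a Pearson r of 0.987 and Cd74 with 0.980, whereas H2-DMa had 0.723 and H2-DMb1 0.672. The 10 other genes most like the mean of the members, of 16150 with at least 200 UMIs, were Fermt1 (r = 0.958), Icam1 (0.922), Timp3, Apobec3, Cxcl10, Gm16685, Cd63, Bok, Kcnj15 and Relb (0.825). Without the thymocyte-like profiles the r of Fermt1 was 0.949 and that of Relb 0.758. Profiles share libraries and depth, so these values describe likeness and carry no p.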

How the data were processed

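Thymic cells of 3 pooled mice per condition were profiled with a 10x 3' kit. Per the file headers, the authors counted UMIs with Cell Ranger 5.0.1 on mm10 and deposited raw UMI counts without normalization, while the processing notes name version 5.1. The deposited counts were read with Python 3.11.15, and a cell was kept if it had 200 or more genes and no more than 25% of its UMIs from mitochondrial genes. Doublets were not removed beyond cells that passed more than 1 gate. UMIs were summed per class and library, and ratios used 1 CPM added. The background was formed by the genes that reached 50 UMIs when a pair of libraries was added up. The calculation of ratios was checked on simulated counts with known fold changes. Intervals cover counting error only.

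The members and lists were chosen with earlier results of these data known. Genes named beside the members were those of the lists past 1.5-fold from WT-Control to Cd40KO-RANKL-Ab in CCL21+ mTEC-like, cTEC-like or progenitor-like cells, and the 10 most like the members. Class gates used markers only, with limits set after the files were seen. The thymocyte limit of 20 was read from the histogram of its markers. A limit of 50 was tried after the members' levels in these cells had been seen, and is therefore given as an alternative only. That alternative, the removal of shared barcodes and the letters TGATTGG were chosen after seeing the data. The other alternatives were a mitochondrial limit of 13%, gate limits multiplied by 1.5, cells with at least 2000 UMIs, TMM factors of edgeR 4.0.16, totals without Ccl21a and the members, the mean over cells of CPM, 10 CPM added, removal of the 5% of cells with the highest Scrublet scores (Scanpy 1.11.5), no filter on genes and at least 200 UMIs. H2-Ea-ps, H2-Ea, Ifi30, Marchf1 and Marchf8 were not analysed here. A further gene of these lists is not reported here.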

Additional observations from a re-analysis of the deposited data

Results flagged for a closer look

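The log2 ratio of RANKL-Ab to Control had opposite signs in WT and Cd40KO, with both counting intervals on either side of 0, for the following values. The difference between the genotypes was not tested, since each ratio rests on 2 libraries. In CCL21+ mTEC-like cells the ratio was 0.22 in WT and -0.27 in Cd40KO for Ciita, 0.02 and -0.45 for H2-Aa, 0.05 and -0.10 for Cd74, and 0.02 and -0.24 for the summed members. The WT value of the summed members was -0.01 with gate limits multiplied by 1.5, -0.03 with at least 2000 UMIs and -0.06 with TMM factors, so the signs were not opposite under these settings, and single members were not recomputed under them. In progenitor-like cells it was 0.16 and -0.34 for H2-Ab1, 0.12 and -0.37 for H2-Eb1, and -0.36 and 0.20 for H2-DMb2.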

How the results depend on the processing

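No paired analysis was possible because each condition had 1 library. Of the recomputed counts of members past 1.5-fold, 245 stayed within 1.5 times the reported count and 19 did not. Most of the reported counts were 0, and those that stayed at 0 are among the 245, which therefore says little about the other counts. Of the log2 ratios of the summed members, 86 stayed within the counting interval, 42 left it and 4 changed sign. Where not shown by the alternative itself, the cause was not tested. In CCL21+ mTEC-like cells the summed ratio of WT-RANKL-Ab, reported as 0.02, was -0.01 with gate limits multiplied by 1.5, -0.03 with at least 2000 UMIs, -0.06 with TMM factors, 0.05 without the top Scrublet scores and 0.29 as a mean over cells. That of Cd40KO-Control, -0.05, was -0.05, outside its interval before rounding, at the mitochondrial limit of 13%, -0.06 with raised gates, -0.04 with at least 2000 UMIs, -0.03 without the top Scrublet scores, -0.20 with TMM factors and -0.06 with totals lacking Ccl21a and the members. That of Cd40KO-RANKL-Ab, -0.29, was -0.27 without the top Scrublet scores, -0.31 without shared barcodes, -0.43 with TMM factors, -0.28 with the reduced totals and -0.23 as a mean over cells.

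In cTEC-like cells the counts of lower members were 0, 0 and 1 with raised gates, and 5 in Cd40KO-RANKL-Ab with TMM factors, as a mean over cells and without shared barcodes. The summed ratios of WT-RANKL-Ab, Cd40KO-Control and Cd40KO-RANKL-Ab, reported as -0.34, -0.44 and -0.51, were -0.14, -0.27 and -0.30 with raised gates, -0.26, -0.38 and -0.44 with the thymocyte limit of 50, and -0.41, -0.57 and -0.64 with TMM factors. As a mean over cells the first was -0.30 and the last -0.58, and without shared barcodes the last was -0.58.

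In progenitor-like cells 1 member was lower in WT-RANKL-Ab without the top Scrublet scores, with the thymocyte limit of 50, with TMM factors and with the reduced totals. With raised gates 0 were lower in Cd40KO-Control and 0 in Cd40KO-RANKL-Ab, and 0 were higher in Cd40KO-Control with TMM factors, as a mean over cells and with 10 CPM added. The summed ratios, reported as -0.03, -0.07 and -0.30, were 0.02, -0.01 and -0.26 with raised gates and -0.10, -0.24 and -0.38 with TMM factors. The first was -0.01 as a mean over cells and the last -0.28 without shared barcodes.

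In Aire+ mTEC-like cells 2 members were higher in WT-RANKL-Ab with raised gates and with the reduced totals and 0 with TMM factors, and 1 was lower in Cd40KO-Control with TMM factors. The summed ratio of WT-RANKL-Ab, 0.39, was 0.43 with raised gates, 0.38 with at least 2000 UMIs, 0.41 without the top Scrublet scores, 0.29 with TMM factors, 0.42 with the reduced totals and 0.48 as a mean over cells. That of Cd40KO-Control, -0.20, was -0.22, -0.35, -0.21 and -0.16 with raised gates, TMM factors, the reduced totals and a mean over cells. Without thinning, 126 of the shares of cells with a UMI left their interval.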
